A study of Mus musculus with 69 samples.

Results

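MHC class I molecules carry peptides cut from proteins inside the cell to the cell surface, where CD8 T cells read them. The 10 genes described here make that route: the heavy chains H2-K1 and H2-D1 and their light chain B2m, the peptide transporter subunits Tap1 and Tap2, the loading factor Tapbp (tapasin), the immunoproteasome subunits Psmb8, Psmb9 and Psmb10, and Nlrc5, which drives transcription of class I genes. They were chosen by symbol, and all 10 were among the 24523 gene symbols with counts in kidney RNASeq libraries of NZB/W F1 mice, a cross that develops lupus nephritis with age.

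Kidneys of 65 mice were compared, each mouse with 1 original library. Young mice (n = 30) were 12 weeks old and nephritic mice (n = 27) were 30 to 45 weeks old with established proteinuria, and both were collected at 6 time points, ZT0, 4, 8, 12, 16 and 20, with ZT0 at lights on and ZT12 at lights off. There were 7, 4, 4, 7, 4 and 4 young mice and 7, 4, 4, 6, 3 and 3 nephritic mice at these times. Remission mice (n = 8, 4 at ZT0 and 4 at ZT12) were nephritic mice that were treated at 36 to 50 weeks of age. They received cyclophosphamide at 50 mg/kg, and 200 µg of CTLA4Ig and 250 µg of anti-CD40L per dose, in 6 doses over 2 weeks. Per the paper, those whose proteinuria stayed in remission were harvested 8 weeks later. Nephritic mice were older than young mice. Remission mice were treated, were kept for lasting remission, and were 8 weeks past their age at treatment when harvested. Disease, age and treatment therefore cannot be told apart from these libraries alone. All groups share the NZB/W F1 background, and no untreated old mouse without nephritis was analysed here.

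Values are CPM, the reads of a gene relative to the total of its library after TMM scaling, a correction for library composition. Total counts ran from 25257530 to 35744843 in young, from 26596500 to 48075977 in nephritic and from 13311278 to 21849912 in remission mice, so the remission libraries were the shallowest. Kidney markers were present in every group: the summed level of 4 proximal tubule genes ran from 6907 to 11545 CPM in young mice, from 1113 to 9048 CPM in nephritic mice and from 4637 to 7124 CPM in remission mice. The 4 leukocyte markers Ptprc, Cd52, Coro1a and Laptm5 summed to between 26.7 and 50.4 CPM in young, 64.4 and 927 CPM in nephritic and 64.2 and 470 CPM in remission mice, and none of them was at 0 throughout a group. Judged by the clock gene Arntl, 2 libraries stood apart from their time labels. The library labelled Remission ZT12 replicate 4 had 27.6 CPM of Arntl, within 22.7 to 29.2 CPM at ZT0 and outside the 3.20 to 4.92 CPM of the other ZT12 remission mice. Nephritic ZT8 replicate 3 had 18.3 CPM, against 2.10 to 3.80 CPM in the other nephritic mice of ZT8. The members' calls over time, at ZT8 and in remission are given with and without them. Ratios and correlations are given only with them.

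The class I route begins at the proteasome. Interferon gamma, a cytokine of activated T cells and NK cells, raises the transcription factor Irf1 and makes cells replace the constitutive catalytic subunits Psmb5, Psmb6 and Psmb7 by Psmb8, Psmb9 and Psmb10, which changes the peptides that are cut. Tap1 and Tap2 pump these peptides into the endoplasmic reticulum, where tapasin holds the empty heavy chain with B2m beside the transporter until a peptide fits. In kidney, tubule cells are known to carry little class I and to raise it under inflammation.

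In GRCm38, 7 of the 10 genes lie on chromosome 17, within or beside the major histocompatibility complex. Tapbp spans chr17:33915899-33929292 (plus strand), H2-K1 chr17:33996017-34000347 (minus), Psmb9 chr17:34181987-34187764 (minus), Tap1 chr17:34187553-34197225 (plus), Psmb8 chr17:34197721-34201454 (plus), Tap2 chr17:34203527-34216321 (plus) and H2-D1 chr17:35262730-35267499 (plus). Psmb9 and Tap1 are arranged head to head, with 225 bases between their RefSeq start sites, and their annotated extents overlap. B2m lies at chr2:122147686-122153083 (plus), Psmb10 at chr8:105935735-105938444 (minus) and Nlrc5 at chr8:94434356-94527272 (plus). Nlrc5 is recruited through a composite promoter element, the SXY module, whose X2 and Y boxes bind CREB family factors and NF-Y, so the promoter sequences of B2m and the heavy chains are shown here. Start sites from RefSeq were matched for 8 of the 10 genes, and the windows of Tap2 and Nlrc5 were not analysed here. Capitals mark matches to the X2 box core (TGACG), the Y box core (CCAAT or its complement ATTGG), the interferon-stimulated response element (GAAA, any 2 bases, then GAAA) and the NF-kappa B motif, each searched on both strands in the 250 bases before the start. The B2m stretch is chr2:122147437-122147685 and the H2-K1 stretch is chr17:34000348-34000597, read on the minus strand, each 5′ to 3′ and ending just before the first annotated exon.
B2m: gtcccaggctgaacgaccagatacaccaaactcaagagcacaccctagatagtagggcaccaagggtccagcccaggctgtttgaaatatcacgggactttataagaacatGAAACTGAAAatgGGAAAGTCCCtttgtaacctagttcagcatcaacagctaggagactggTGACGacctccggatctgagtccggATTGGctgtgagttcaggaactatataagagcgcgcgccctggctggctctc
H2-K1: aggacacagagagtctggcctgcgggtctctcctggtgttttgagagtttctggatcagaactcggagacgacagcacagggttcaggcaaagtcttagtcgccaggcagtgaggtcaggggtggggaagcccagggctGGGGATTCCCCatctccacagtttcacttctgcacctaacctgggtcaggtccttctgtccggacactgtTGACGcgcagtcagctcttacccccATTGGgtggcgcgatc

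The X2 and Y cores stood in the same order in B2m and both heavy chain genes, with 20 bases between them in each. They are set out below each other from chr2:122147609-122147638 (plus), chr17:34000359-34000388 (minus) and chr17:35262993-35263022 (plus).
B2m: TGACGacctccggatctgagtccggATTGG
H2-K1: TGACGcgcagtcagctcttacccccATTGG
H2-D1: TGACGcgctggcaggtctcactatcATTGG
A window with this pair and gap occurred in 26 genes, 30 of 32817 promoter windows of the same length or 0.0914%, and these 26 genes included the class I gene H2-M3. The gap was chosen after the members' windows were read. The X2 core alone was in 17.7% of all windows and the Y core in 33.8%. Tap1 and Psmb9 share a single X2 core between their start sites, shown on the Tap1 strand at chr17:34187458-34187487 as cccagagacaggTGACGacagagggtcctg. The Psmb8 window held a GAS element (TTCNNNGAA, found in 7.01% of windows), a kind of site in genes that answer to interferon gamma, shown at chr17:34198088-34198117 as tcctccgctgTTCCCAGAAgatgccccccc. The interferon-stimulated response element, found in 2.97% of windows, was matched in the B2m window, at bases -139 to -130 from its start site, and the NF-kappa B motif, found in 7.25%, in B2m, H2-K1 and H2-D1. In GENCODE the whole 250 bases searched for H2-D1, Psmb8, Tap1, Psmb9 and Tapbp lie in annotated exons, so the stretches shown for H2-D1, Tap1 and Psmb8 are exonic in that annotation. These matches are letters in a window, and binding was not measured. Variants of these patterns were not searched, so a window without a match may still hold a site of that kind.

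All 10 genes were higher in nephritic than in young kidneys, from 1.53-fold for Tapbp to 4.46-fold for Nlrc5. Among all 17521 genes tested, 28.1% were called higher and 33.9% lower, at an adjusted p of at most 0.05 in edgeR's quasi-likelihood test with time point and sequencing set in the fit. The members' median log2 difference was 1.42, against -0.03 over all genes tested, and between 86.6% (Tapbp) and 96.9% (Nlrc5) of genes had a smaller value. In whole kidney RNA, more cells of a type and more RNA per cell cannot be told apart, here and in every comparison that follows. Overlap between groups was counted, here and below, for the members alone, so no share of all genes stands beside it.

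B2m is the light chain shared by all class I molecules. It ran from 285 to 512 CPM (median 349.9) in young and from 386 to 1545 CPM (median 681) in nephritic mice. The ranges overlapped, and 20 of 27 nephritic mice lay above the highest young mouse. Its log2 difference was 0.91 (SE 0.077, edgeR adjusted p = 8.1e-15). H2-K1, a classical heavy chain, ran from 45.1 to 103 CPM (median 68.7) in young and from 108 to 737 CPM (median 202) in nephritic mice. For H2-K1 the groups did not overlap, and the log2 difference was 1.68 (SE 0.14, edgeR adjusted p = 2.4e-15). H2-D1, the other classical heavy chain, ran from 41.3 to 94.9 CPM (median 62.6) and from 88.8 to 380.0 CPM (median 154), with 24 of 27 nephritic mice above all young mice. Its log2 difference was 1.25 (SE 0.097, edgeR adjusted p = 3.9e-16). Reads were counted against a C57BL/6 genome, whose H2 alleles differ from those of NZB and NZW, with unique alignment and at most 2 mismatches. Of the 50-base windows along H2-K1 and H2-D1 transcripts, 9.63% and 12.8% also occur in other genes' transcripts, and of the 150-base windows 0.0% and 1.35%. The absolute level of both heavy chains is uncertain because of the alleles, and their effect on the difference between groups of the same strain was not tested.

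The transporter subunits differed from each other in size of change. Tap1 ran from 7.50 to 16.06 CPM (median 10.9) in young and from 16.11 to 106 CPM (median 34.7) in nephritic mice, without overlap. The log2 difference of Tap1 was 1.59 (SE 0.12, edgeR adjusted p = 7.4e-17). Tap2, its partner in the heterodimer, ran from 22.4 to 40.3 CPM (median 32.4) and from 34.3 to 134 CPM (median 61.9). For Tap2, 26 of 27 nephritic mice were above all young mice, and the log2 difference was 0.96 (SE 0.09, edgeR adjusted p = 2.2e-13). Tapbp, the bridge between transporter and heavy chain, had the smallest change: 103 to 140.8 CPM (median 118) in young and 126 to 359.9 CPM (median 179) in nephritic mice. Its log2 difference was 0.61 (SE 0.072, edgeR adjusted p = 3.5e-10), with 23 of 27 nephritic mice above all young mice. Of the 50-base windows of Tapbp transcripts 23.2% occur in transcripts of other genes, and of the 150-base windows 10.1%, all of these in the annotated gene Gm19412.

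Psmb8, which takes the place of Psmb5, rose most of the 3 immunoproteasome subunits. It ran from 12.3 to 22.4 CPM (median 15.3) in young and from 23.6 to 218 CPM (median 49.3) in nephritic mice, and the groups did not overlap. Its log2 difference was 1.83 (SE 0.14, edgeR adjusted p = 5.9e-17). Psmb9, which takes the place of Psmb6, ran from 5.02 to 11.3 CPM (median 6.97) and from 9.84 to 97.8 CPM (median 20.3), with 26 of 27 nephritic mice above all young mice. The log2 difference of Psmb9 was 1.63 (SE 0.13, edgeR adjusted p = 2.4e-15). Psmb10, which takes the place of Psmb7, ran from 14.7 to 29.5 CPM (median 21.7) and from 22.1 to 124 CPM (median 41.9), with 22 of 27 above all young mice. For Psmb10 the log2 difference was 1.02 (SE 0.12, edgeR adjusted p = 5.3e-10).

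Nlrc5 had the largest change. It ran from 2.43 to 6.68 CPM (median 3.92) in young and from 5.96 to 67.9 CPM (median 18.5) in nephritic mice, and 26 of 27 nephritic mice were above all young mice. Its log2 difference was 2.16 (SE 0.14, edgeR adjusted p = 7.5e-19). Leaving out any of the 57 mice, dropping the set term or the filter on low counts, keeping Set 2 alone, and DESeq2 or limma in place of edgeR each left all 10 genes higher.

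**Figure D1:**
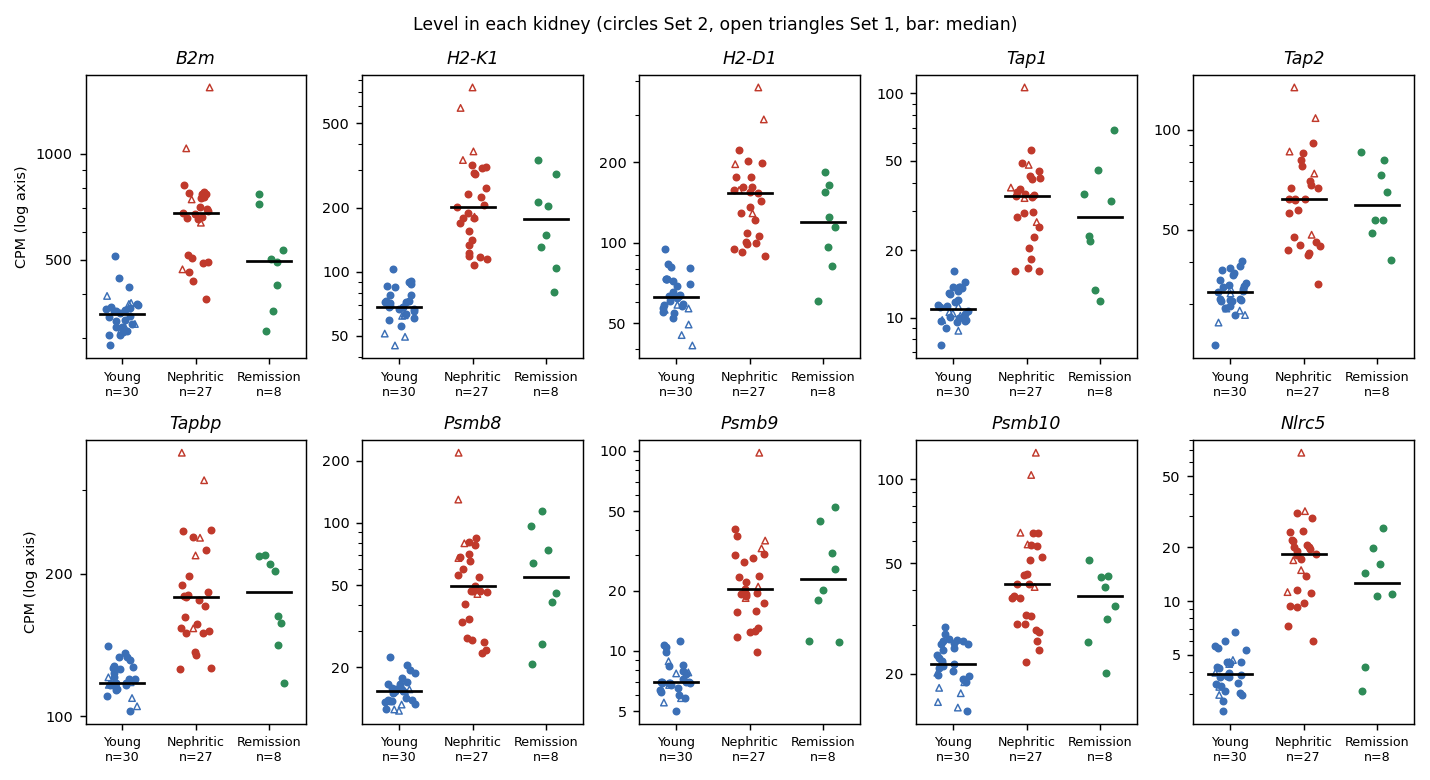
CPM of each member (log axis) in every young, nephritic and remission mouse, 1 point a mouse (open triangles for Set 1, circles for Set 2), with a bar at the group median. For H2-K1, Tap1 and Psmb8 all 27 nephritic mice lie above all 30 young mice, a separation that was not counted for other genes. The 8 remission mice spread widely, as from 3.15 to 25.8 CPM for Nlrc5.

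**Figure D2:**
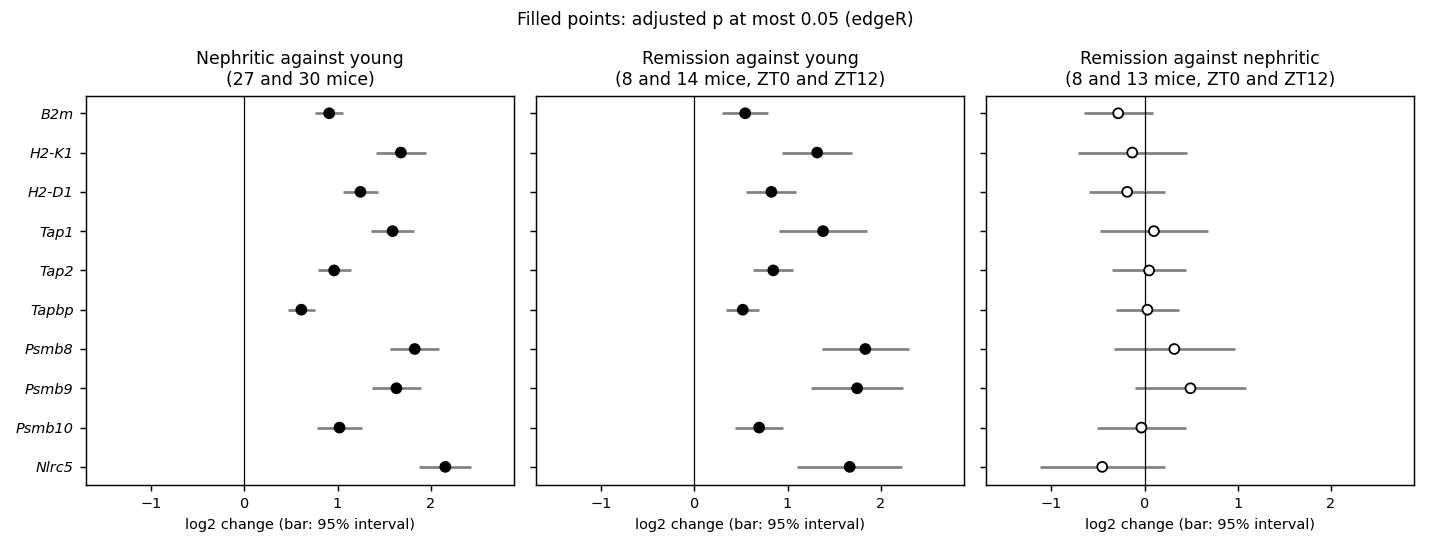
Log2 difference of each member with its 95% interval for nephritic against young, remission against young and remission against nephritic mice, with filled points for an adjusted p of at most 0.05. The first 2 comparisons lie above 0 for all 10 genes, and the intervals of the last all include 0.

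Levels of different genes were set side by side only per length, as CPM divided by the exon length in kilobases (RPKM). In young kidneys B2m stood far above the rest, with a median of 407 RPKM against 32.5 for Tapbp, 24.3 for H2-D1 and 23.4 for H2-K1. Psmb10 followed at 12.8 RPKM, Tap2 at 8.57, Psmb8 at 4.53, Tap1 at 1.99, Psmb9 at 1.91 and Nlrc5 at 0.461. Neighbours in this order kept it in at least 28 of 30 young mice, except H2-D1 above H2-K1, which held in 22, and Tap1 above Psmb9, which held in 18. In nephritic kidneys B2m was again first, with a median of 791 RPKM, and H2-K1 (68.8 RPKM) stood above H2-D1 (59.7 RPKM) in all 27 mice. Tapbp was next at 49.3 RPKM, below H2-D1 in 20 of 27 mice. Tap2 and Psmb8 were close (16.4 and 14.6 RPKM, this order in 17 of 27), as were Tap1 and Psmb9 (6.34 and 5.55 RPKM, this order in 12 of 27).

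None of the subunits that the immunoproteasome displaces was called higher in nephritic mice. The log2 difference of nephritic against young was 0.03 for Psmb5 (edgeR adjusted p = 0.69), -0.07 for Psmb6 (edgeR adjusted p = 0.26) and -0.26 for Psmb7, which fell (SE 0.033, edgeR adjusted p = 1.7e-09). The log2 ratio of CPM of Psmb8 to Psmb5 ran from -2.40 to -1.39 (median -1.82) in young and from -1.40 to 1.78 (median 0.01) in nephritic mice. Only 1 of 27 nephritic mice lay below the highest young mouse. Adjusted for time point and set, the ratio was higher by 1.72 in nephritic mice. For Psmb9 to Psmb6 the ratio was higher by 1.64 and for Psmb10 to Psmb7 by 1.24, with 26 and 24 of 27 nephritic mice above all young mice. Each of the 3 had a two-sided permutation p of 1e-05, the smallest that 100000 draws can give, and an adjusted p of 2e-05 over 6 tests.

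Other genes of the route changed less evenly. Of 5 further loading and trimming genes, 3 rose and 1 fell: the tapasin homologue Tapbpl had the largest log2 difference (0.48) and Canx (calnexin) the smallest (-0.21). The other class I heavy chains numbered 17, of which 12 passed the filter on low counts. Of these 12, 9 rose and 1 fell, from 3.35 for H2-M2 to -1.49 for H2-Q10. Genes of the class I fold with other tasks rose in 3 of 6 cases, from 0.62 for Hfe, an iron regulator, to -0.66 for Azgp1, which did not pass the test. Among 7 proteasome activator and assembly genes 2 rose and 3 fell. The pair that rose was Psme1 (0.46) and Psme2 (0.46), the subunits of the interferon-induced cap PA28, and the lowest value was that of Psme4 (-0.36).

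Regulators of the class I genes rose in 15 of 22 cases and fell in 3. Ifng had the largest log2 difference (2.09, SE 0.32), at a level of at most 0.185 CPM in young and 1.12 CPM in nephritic mice. Ciita, the class II counterpart of Nlrc5, rose by 1.98 and Irf1 by 1.26. Rfx5, a subunit of the factor on the X1 box, rose by 0.27, and Nfyc, a subunit of NF-Y, was lowest at -0.19. All 9 genes of cells that read class I rose, from 0.70 for Cd8a to 3.27 for Cd8b1.

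Leukocyte markers moved with the members. All 4 general leukocyte, 6 T cell, 4 NK cell, 4 B cell, 4 plasma cell and 6 macrophage and myeloid markers were higher in nephritic mice. Log2 differences were 2.62 for Ptprc (CD45), 2.05 for Cd3e and 2.55 for Adgre1, against at most 2.16 for any member. All 4 proximal tubule markers were lower, with Lrp2 at -0.94, as were 2 of 4 endothelial markers, while 2 of 4 podocyte markers were higher. T cell markers summed to 5.15 to 12.9 CPM in young and 8.85 to 131 CPM in nephritic mice, and B cell markers to 1.03 to 22.1 and 6.45 to 331 CPM. How much of the members' rise came with infiltrating cells was not tested.

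The difference was larger among mice of Set 1 than among those of Set 2. The study's sample table divides the RNASeq samples into 2 sets, which the mouse labels follow: Set 1 held 6 young and 5 nephritic mice, collected at ZT0 or ZT12 alone, and Set 2 held 8 of each at these times. Within Set 1 all 10 members were higher in nephritic mice (31.1% of genes were called higher and 28.0% lower), with a median log2 difference of 2.21. Within Set 2 all 10 were higher as well (21.6% of genes higher, 17.1% lower), with a median of 1.13. The difference between the sets passed the test for 8 of 10 members, all larger in Set 1, where 16.7% of genes were called in that direction and 18.4% in the other. It was largest for H2-K1 (log2 1.53, SE 0.34, edgeR adjusted p = 0.0014), and next came Psmb10 (1.43, SE 0.31) and Psmb8 (1.40, SE 0.37). For B2m (0.50, edgeR adjusted p = 0.11) and Nlrc5 (0.63, edgeR adjusted p = 0.21) it did not pass.

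H2-K1 showed the gap plainly. Set 1 nephritic mice had 182 to 737 CPM (median 369) over young mice at 45.1 to 63.8 CPM, and Set 2 nephritic mice of the same times had 108 to 318 CPM (median 179.5) over young mice at 59.4 to 88.0 CPM. By the medians, nephritic mice were higher and young mice lower in Set 1. A single mouse, Nephritic ZT12 replicate 1 of Set 1, was the highest nephritic mouse for 9 of 10 members and had 242 CPM of Ptprc, against 12.5 to 107 CPM in the other nephritic mice. Without it, 6 members differed between the sets and the members' median difference went from log2 1.09 to 0.68. Lcn2, a marker of tubule injury, ran from 9.20 to 709 CPM in Set 1 and from 5.45 to 393 CPM in Set 2 nephritic mice of ZT0 and ZT12. Whether set, severity or infiltrate went with the gap was not tested.

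**Figure D3:**
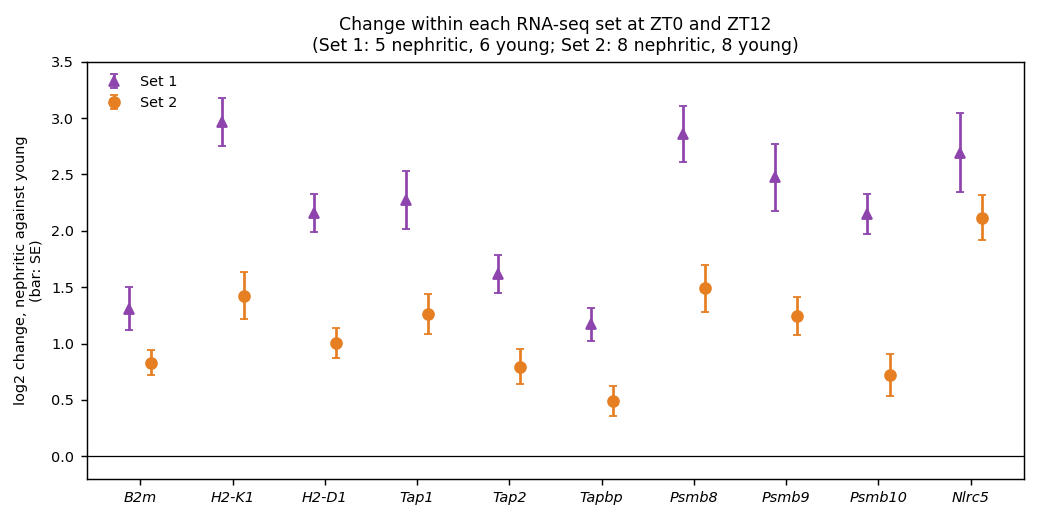
Log2 difference of nephritic against young mice for each member at ZT0 and ZT12, in Set 1 (triangles, 5 nephritic and 6 young mice) and Set 2 (circles, 8 and 8), with bars for the SE. Every Set 1 value lies above the Set 2 value of the same gene, from medians of 2.21 and 1.13, and the gap is narrowest for B2m and Nlrc5.

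Over the day, young kidneys differed little in these genes. In young mice 5 members varied over the 6 time points, among 39.8% of 16521 genes tested: H2-D1 (edgeR adjusted p = 0.00038), Tapbp (0.011), Psmb10 (0.015), Tap2 (0.026) and H2-K1 (0.038). The ratio of the highest to the lowest time point mean ran from 1.13 for Psmb9 to 1.44 for H2-D1, with a median of 1.27. With both sets pooled, H2-D1 was lowest at ZT0 (mean 54.3 CPM) and highest at ZT16 (78.0 CPM). H2-K1 was lowest and highest at the same times (60.3 and 81.7 CPM). These means took no account of set, and Set 1 mice entered those of ZT0 and ZT12 alone. At ZT0 and ZT12 together, young mice of Set 1 and Set 2 had medians of 56.8 and 73.3 CPM for H2-K1. For H2-D1 they were 52.8 and 63.4 CPM. How far the low at ZT0 came with the mix of sets was not tested. Tap2 and Tapbp were highest at ZT8 and lowest at ZT20, with means of 36.04 and 27.9 CPM for Tap2. The call of H2-K1 was lost without any of 18 of 30 young mice, at an adjusted p of up to 0.064, and that of Tap2 without Young ZT20 replicate 1 (0.080) or replicate 2 (0.057). In addition, the calls of H2-K1 and Tap2 were lost without the set term and in Set 2 alone.

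In nephritic mice Nlrc5 was the 1 member that passed the test over time (edgeR adjusted p = 0.043), among 21.6% of 16872 genes. Its mean was 11.2 CPM at ZT8 and 30.6 CPM at ZT12. The ratio of highest to lowest mean was larger than in young mice for every member, from 1.48 for Tapbp to 2.73 for Nlrc5. This ratio took no account of set or of the spread within a time point, and was not tested between the groups. In nephritic mice 8 members had their highest mean at ZT12 and 2 at ZT16. The ZT12 means rested on Nephritic ZT12 replicate 1: without it all 10 members had their highest mean at ZT16, as Nlrc5 with 27.5 CPM against 23.1 CPM at ZT12. By the median of all mice 8 members were highest at ZT16 and 2 at ZT0. By the SD of CPM, nephritic mice also spread more than young mice for every member at each time point but ZT16. There B2m (25.9 against 92.8 CPM), H2-K1, H2-D1 and Psmb8 had a smaller SD in nephritic mice, and the other members a larger one. At ZT12 Nlrc5 ran from 13.8 to 67.9 CPM over 6 mice, and Nephritic ZT12 replicate 1 was the highest of them. Without that mouse the call of Nlrc5 was lost (edgeR adjusted p = 0.064), as it was without each of 16 others, with adjusted p of at most 0.085. Without Nephritic ZT8 replicate 3, the mouse out of step with its time label, 5 members passed: Nlrc5, Psmb9, H2-D1, Tap1 and B2m.

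No member differed between the groups in its course over time, where 1099 of 17521 genes (6.27%) did. Nlrc5 had the smallest edgeR adjusted p, 0.10, and was the 1 member with an unadjusted p under 0.05. DESeq2 also called 0 members. Without Nephritic ZT8 replicate 3, Nlrc5 passed at 0.033. In simulated libraries of this size, some genes had a 24 h cosine added in nephritic mice. Its amplitude was 0.5 on the log2 scale, from mean to peak, and 66% of these genes were recovered. They were 200 genes drawn at random, with no other gene changed, so the rate need not hold for the members.

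At each time point the members' differences were all above 0. All 10 were called higher at ZT0 (20.1% of genes), ZT12 (25.8%) and ZT16 (10.1%), 8 at ZT4 (13.9%), 7 at ZT20 (4.56%) and 4 at ZT8 (2.83%). Genes called lower made up 19.4% at ZT0, 16.4% at ZT4, 0.833% at ZT8, 24.2% at ZT12, 7.66% at ZT16 and 0.919% at ZT20, and no member was among them. Nlrc5 differed by a log2 of 1.94 at ZT0, 2.20 at ZT4, 1.31 at ZT8, 2.79 at ZT12, 2.65 at ZT16 and 1.80 at ZT20, and passed at each. At ZT8 the others that passed were Psmb8 (1.27), Psmb9 (1.29) and Tap1 (1.02). Tapbp and Psmb10 were the members short of the threshold at ZT4 and, with Psmb9, at ZT20. The ZT8 calls rested on single mice. None remained without Nephritic ZT8 replicate 3, Young ZT8 replicate 2 or Young ZT8 replicate 4, 2 remained without Young ZT8 replicate 3, and in Set 2 alone 7 members passed at ZT8. At ZT20, with 3 nephritic mice, 2 members passed without replicate 1 and 4 without replicate 3. Set 1 mice were collected at ZT0 and ZT12 alone. In Set 2 alone the members' median log2 difference was 1.14 at ZT0 and 1.03 at ZT12, against 1.39 and 1.76 with both sets. At ZT4, ZT8, ZT16 and ZT20 it was 1.24, 0.88, 1.67 and 1.09 in Set 2 alone, against 1.17, 0.85, 1.64 and 1.05.

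**Figure D4:**
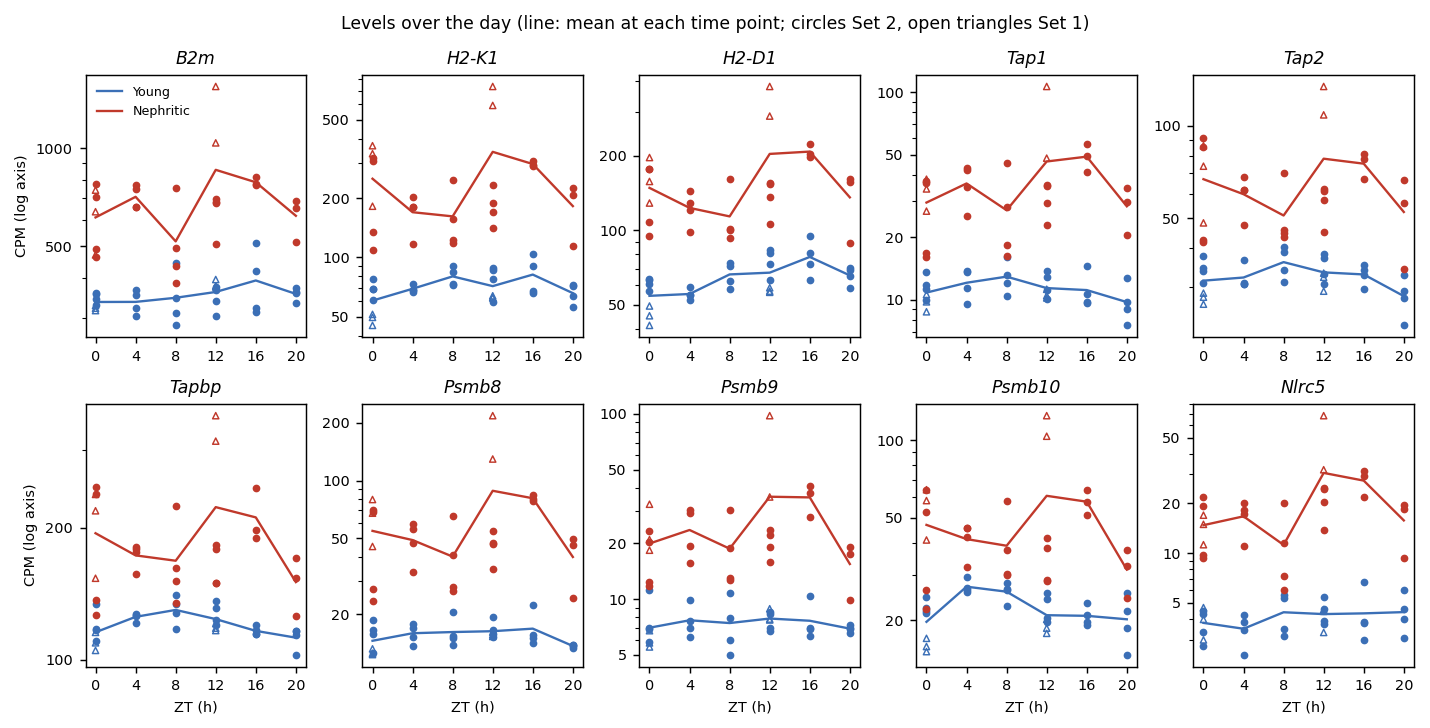
CPM of each member (log axis) over the 6 time points in hours after lights on, for young (blue) and nephritic (red) mice, 1 point a mouse (open triangles for Set 1) and a line through the means. The nephritic lines lie above the young lines at every time point, and the 2 Set 1 mice at ZT12 include the highest nephritic value of each gene.

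Remission mice were compared with young and nephritic mice of ZT0 and ZT12. All 10 members were higher than in young mice (26.0% of genes were called higher and 25.6% lower), with log2 differences from 0.52 for Tapbp to 1.84 for Psmb8. Psmb8 ran from 20.8 to 114 CPM (median 54.6) in the 8 remission mice, and each was above the 14 young mice of these times. Tap2, at 40.6 to 85.6 CPM (median 59.3), did not overlap with young mice either. Nlrc5 ran from 3.15 to 25.8 CPM (median 12.7), with 6 of 8 above all young mice of these times. The labels do not say whether remission libraries were sequenced apart from the others. With a further term that set the remission libraries and the 4 repeat libraries of young and nephritic mice apart from the originals, on the untested assumption that they share a sequencing run, the median log2 difference of the members was 1.21 and 4 of 10 passed. The repeat library of Nephritic ZT12 replicate 6 was more like 14 other originals than its own, and without that pair 2 of 10 passed, at a median of 1.33.

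No member differed between remission and nephritic mice, where 14.6% of 16344 genes were higher and 16.5% lower in remission. No member had an unadjusted p under 0.05, and DESeq2 and limma also called 0. The log2 difference ran from -0.45 for Nlrc5 (95% interval -1.13 to 0.22) to 0.49 for Psmb9 (-0.10 to 1.09). For B2m it was -0.28 (-0.65 to 0.09), for H2-K1 -0.13 (-0.72 to 0.45), for Tap1 0.10 (-0.48 to 0.69) and for Psmb8 0.32 (-0.33 to 0.97). These intervals leave room for a fall of up to 0.72 in H2-K1 and of up to 1.13 in Nlrc5. In simulated libraries of this size, 30.5% of genes that differed by 0.5 and 72.5% of genes that differed by 1 were recovered. The 200 changed genes were drawn at random and no other gene was changed, so these rates need not hold for the members. Remission mice belong to Set 2 and 5 of the 13 nephritic mice to Set 1, and the comparison changed with the set term. Without it the members' median was -0.37 and B2m passed as lower (-0.49), against a median of -0.001 with it and 0.004 in Set 2 alone. The median was -0.24 in the joint fit of 3 groups and -0.24 with the repeat-library term, with 0 members called in each.

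Without account of set, the immunoproteasome ratios of remission mice lay lower on average than those of nephritic mice. None of the 3 differences passed the test. For Psmb8 to Psmb5 the log2 ratio ran from -1.56 to 0.72 (median -0.37). The group means were -0.36 in remission and -0.007 in nephritic mice, and the difference averaged within time points was -0.38 (exact permutation p = 0.28, adjusted 0.34). For Psmb9 to Psmb6 that difference was -0.25 (exact permutation p = 0.47, adjusted 0.47) and for Psmb10 to Psmb7 -0.59 (exact permutation p = 0.11, adjusted 0.16). These ratios took no account of set, although remission mice all belong to Set 2 and nephritic mice to both sets. Their direction may therefore depend on set. With set in the edgeR fit, the log2 difference was 0.32 for Psmb8, 0.49 for Psmb9 and -0.03 for Psmb10, and none passed. The constitutive subunits Psmb5 (log2 0.36, edgeR adjusted p = 0.0069) and Psmb6 (0.39, edgeR adjusted p = 0.002) were higher in remission than in nephritic mice.

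Remission mice differed greatly among themselves. Remission ZT0 replicate 1 was the lowest for 9 members and Remission ZT12 replicate 1 for Nlrc5, with 14.8 and 8.80 CPM of Ptprc. Remission ZT12 replicate 3 was the highest for 9 members, with 89.2 CPM of Ptprc, and Remission ZT12 replicate 2 for the other, with 60.8 CPM. Averaged over the 10 members, remission mice lay between 0.14 and 1.95 (median 1.15) above the young mean on the log2 scale, against 0.53 to 2.91 (median 1.34) in nephritic mice and -0.32 to 0.41 in young mice. Leukocyte, T cell and macrophage marker genes were not called different between remission and nephritic mice (0 of 4, 0 of 6 and 0 of 6). Of all genes tested, 14.6% were higher and 16.5% lower in remission. Among 22 regulators of the class I genes, 5 were lower and 1 was higher, with a list median of -0.17. Of the other lists, 3 of 4 endothelial markers (Pecam1, Cdh5 and Kdr) were higher in remission, with a list median of 0.64. For NK cells, 1 of 4 markers (Ncr1) was lower. Of 12 other class I heavy chains 3 were higher (H2-Q2, H2-T23 and H2-T24) and 1 was lower (H2-Q10). These genes were named after their values were seen. Without Remission ZT12 replicate 4, whose Arntl level went against its time label, 10 members were still higher than in young mice and 0 differed from nephritic mice.

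Across nephritic mice all pairs of members were correlated, and across young mice 30 of 45 pairs were. Correlations used residuals of log2 CPM after time point and set, with permutation p adjusted over the 85 pairs computed in a group. Over 27 nephritic mice the 45 pairs of members had Pearson r between 0.59 and 0.98, with a median of 0.91 (Spearman rho median 0.89), and all 45 passed (largest adjusted permutation p = 0.0012). The pair with the lowest r was Tapbp and Psmb9, and the highest was Tap1 and Nlrc5. Without the 2 mice farthest from the median, the median r was 0.89 and the lowest 0.49. Over 30 young mice r ran from -0.02 to 0.87, with a median of 0.46 (rho median 0.48), 30 of 45 pairs passed, and the highest r was that of H2-K1 and H2-D1. Without the 2 farthest young mice the median was 0.43. The points of a group share time point, set and library scaling, and the groups were not tested against each other.

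Members were also set against genes outside the route. In nephritic mice the median r was 0.91 with Irf1 (10 of 10 passed), 0.70 with Lcn2 (10 of 10) and 0.69 with Ptprc (9 of 10). In young mice it was 0.40 with Irf1 (5 of 10), 0.33 with Lcn2 (4 of 10) and 0.23 with Ptprc (2 of 10). Of all other genes tested, those most like the members' mean in nephritic mice were Neurl3 (r 0.97), Casp4 (0.96), Uba7 (0.96), Iigp1 (0.95) and Tor3a (0.95). In young mice they were Bst2 (0.81), C1qa (0.79), Ifitm3 (0.79), Ifi47 (0.78) and Cxcl9 (0.78). These 10 were ranked out of 16862 and 16511 genes, and no p is given for them.

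**Figure D5:**
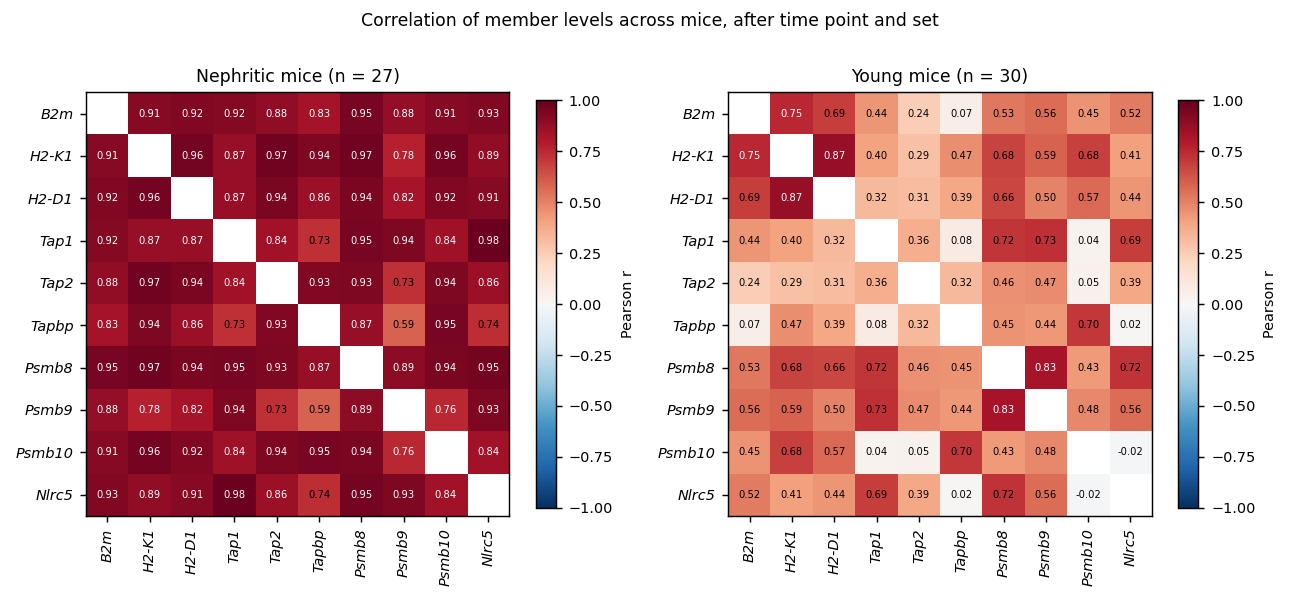
Pearson r between each pair of members over 27 nephritic mice and over 30 young mice, from residuals of log2 CPM after time point and set, as a colour scale. Nephritic values run from 0.59 to 0.98 and young values from -0.02 to 0.87.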

How the data were processed

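Kidney mRNA (oligo-dT selected) of young, nephritic and remission NZB/W F1 mice was sequenced. The authors aligned reads to the mouse genome (mm10), per the paper with a Burrows-Wheeler aligner and per the submitters' processing notes with HISAT, and kept reads that aligned to a single place. The deposited values are raw counts for each gene symbol. Strand is not given in the sources used here. Each library listed 24538 symbols, of which 15 with empty cells were left out. Groups and times came from the labels, and RNASeq set from the start of each mouse's title, matched to the study's sample table. The 4 repeat libraries entered only alternatives.

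Counts with a total of at least 100 over the mice of a fit were scaled by TMM and tested with edgeR 4.0.16 (R 4.3.3), quasi-likelihood F test, with time point and set as covariates, Benjamini-Hochberg adjustment over all genes tested and a threshold of 0.05. The SE is the log2 difference divided by the square root of F. Replicates are separate mice. CPM for ratios and correlations were taken to log2 with a prior count of 2. RPKM used exon lengths and positions from GENCODE M21, and promoters came from RefSeq, both of GRCm38. The methods were tested on simulated data.

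The members and gene lists were chosen with earlier results of these data known. All 10 members are named in every comparison. Of the lists, the genes with the largest and smallest log2 difference and a fixed few (Psmb5, Psmb6, Psmb7, Psme1, Psme2, Irf1, Ifng, Ciita, Rfx5, Ptprc, Cd8a, Cd3e, Adgre1) are named, with the 5 genes most like the members' mean. Alternatives were RLE size factors, DESeq2 1.42.0, limma 3.58.1 on log2 CPM, no filter on low counts, no set term, Set 2 alone, repeat libraries, a 24 h cosine, a joint fit of 3 groups, a repeat-library term (remission and repeat libraries against originals) and leaving out each mouse. The fits within sets, the test of their difference, the joint fit without Remission ZT12 replicate 4 and the repeat-library term without 1 repeat pair were added after seeing the data. Microarrays and C57BL/6 mice were not analysed here, and some genes of the lists are not reported here by name.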

Additional observations from a re-analysis of the deposited data

Results flagged for a closer look

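In 120 groups of 4 to 7 mice (each member at each time point of each diagnosis with at least 4 mice), 6 held a mouse set far apart from the others of its group by Dixon's criterion on the log2 scale, and chance alone gives about 1 in 20. They were Psmb9 in Young ZT0 replicate 2 (11.27 CPM), Tap2 in Young ZT4 replicate 1 (36.53 CPM), Psmb8 in Young ZT12 replicate 3 (19.36 CPM), H2-D1 (161.2 CPM) and Tap2 (70.02 CPM) in Nephritic ZT8 replicate 3, and Tapbp in Remission ZT12 replicate 1 (141.7 CPM). Nephritic ZT8 replicate 3 is the mouse whose Arntl level stood apart from its time label, and it had 53.9 CPM of Ptprc against 12.5 to 32.0 CPM in the other nephritic mice of ZT8.

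The log2 difference between nephritic and young mice at ZT0 and ZT12 was larger in Set 1 than in Set 2 by the test of the difference (edgeR) for 8 members: by 1.533 for H2-K1, 1.427 for Psmb10, 1.401 for Psmb8, 1.269 for Psmb9, 1.14 for H2-D1, 1.034 for Tap1, 0.8064 for Tap2 and 0.6695 for Tapbp. Over leaving out each of the 27 mice, between 6 and 9 members passed, with 6 without Nephritic ZT12 replicate 1 and 7 without Nephritic ZT12 replicate 2.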

How the results depend on the processing

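The rise of all 10 members in nephritic mice kept its direction and passed under each of 7 alternatives and without any of the 57 mice. No paired analysis was possible because the labels give no replicate numbers shared between groups. Members varying over time in young mice went from 5 to 3 without the set term and to 3 in Set 2 alone. In nephritic mice 1 member became 3 with DESeq2 and 0 in Set 2 alone, with repeat libraries and with a 24 h cosine, and 0 to 5 over left-out mice, moving for 21 of 27. Genes varying over time in nephritic mice (3646) became 5646 with DESeq2, 1994 without the set term and 362 with a cosine. Genes differing in time course (1099) became 2186 with DESeq2, 1715 in Set 2 alone, 693 with repeat libraries, 121 with a cosine and 638 to 1771 over left-out mice, with members from 0 to 1. The number of genes was 682 and 1771 without Nephritic ZT12 replicates 1 and 5, 643 without Nephritic ZT16 replicate 3, 638 to 720 without any 1 of the 4 nephritic mice of ZT4, 710 and 707 without Nephritic ZT8 replicates 1 and 2, and 692 without Young ZT4 replicate 1.

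Over left-out mice, members called ran from 0 to 6 at ZT8 and 2 to 8 at ZT20, and genes called from 155 to 768 at ZT8, 1591 to 3344 at ZT16 and 387 to 1142 at ZT20. The ZT8 genes were 155 without Nephritic ZT8 replicate 3 and 393 without Young ZT8 replicate 3, those of ZT16 1591 without Nephritic ZT16 replicate 2, and those of ZT20 387 and 498 without Nephritic ZT20 replicates 1 and 3 and 577 and 627 without Young ZT20 replicates 1 and 2. In Set 2 alone, 7 members and 966 of 17339 genes were called at ZT8, where the main fit called 641. At ZT12 5080 genes were called in Set 2 alone and 8757 in the main fit. Remission against nephritic called 5087 genes in the main fit and 553 of 16941 with the repeat-library term. It called 246 of 16919 without the doubtful repeat pair, and 1 member without the set term. Remission against young called 8260 genes in the main fit. With the repeat-library term it called 1238 of 16941 genes and 4 members, and without that pair 577 of 16919 genes and 2 members. The cause of these shifts was not tested.

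Remission against nephritic also changed sign for members near 0. Without the set term the log2 difference was -0.23 for Psmb8, -0.019 for Psmb9, -0.25 for Tap1, -0.19 for Tap2 and -0.20 for Tapbp. In the joint fit it was -0.10 for Tap1, -0.13 for Tap2 and -0.12 for Tapbp, and without Remission ZT12 replicate 4 it was -0.088, -0.12 and -0.14. With the repeat-library term it was -0.13 for Tap1, -0.22 for Tap2, -0.29 for Tapbp and -0.051 for Psmb8, and without the doubtful pair -0.16, -0.17, -0.18 and -0.011. Tapbp was at -0.053 with repeat libraries and Psmb10 at 0.026 with limma. Over left-out mice it ran from -0.25 to 0.035 for H2-K1, -0.074 to 0.23 for Tap1, -0.024 to 0.18 for Tap2, -0.029 to 0.13 for Tapbp and -0.12 to 0.15 for Psmb10. None of these values passed the test. This comparison held the shallowest libraries, those of the 8 remission mice, beside 13 nephritic mice. It recovered 30.5% of simulated log2 differences of 0.5. Remission against young, with the same 8 libraries and 14 young mice, recovered 59.5%. Nephritic against young, with 27 and 30 mice, recovered 83%. These rates are for randomly drawn genes and need not hold for the members. Why the recovery differed was not tested.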
